A study of Homo sapiens with 2 samples.

Results

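Condensin is the ring-shaped complex that folds chromatin into compact chromosomes before cell division, and the genes of its 8 subunits were examined in a map of MYBL2 on the chromatin of Ewing sarcoma cells. The members were taken by name. SMC2 and SMC4 are shared by both forms of the complex, NCAPD2, NCAPG and NCAPH belong to condensin I, and NCAPD3, NCAPG2 and NCAPH2 belong to condensin II. They are 8 of the 20087 protein-coding genes that were scored. The series holds 2 samples of A673, an established Ewing sarcoma cell line that the titles mark as WT and for which no treatment is given. They are 1 chromatin immunoprecipitation (ChIP-seq) library made with a rabbit monoclonal MYBL2 antibody, described in the study's methods as one against the phosphorylated, activated protein, and 1 input library of the same line without antibody. With 1 library a group, the values carry no replicate error, and no test between conditions was made.

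MYBL2 is a transcription factor that rises with proliferation. With the MuvB complex it is known to bind promoters of late cell cycle genes, in part through the CHR element, a short sequence recognised by a MuvB subunit and not by MYBL2 itself. Condensin I reaches the chromosomes after the nuclear envelope breaks down, while condensin II is in the nucleus throughout the cell cycle. In both, the 2 SMC proteins form the arms of the ring, an NCAPH-type kleisin closes it, and a D-type and a G-type HEAT-repeat subunit bind DNA and the kleisin.

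The promoter sequences are shown first, for 4 genes with a CHR element or a related sequence just past the summit. NCAPD2, with ETS sequences near the summit, is added. Those of SMC2, SMC4 and NCAPH2 are not shown. The summit is the base of a peak with the highest signal. Each line holds 60 bases before and 40 bases after the summit on the gene's own strand (GRCh37, the build with hg19 coordinates). Capitals mark matches to the CHR element (TTTGAA or TTCGAA), the related TTTAAA, the MYB site (TAACNG or CAACNG), the CCAAT box (CCAAT), the E2F core (TTCCCGC as the main spelling, TTGGCGC as another, besides TTCGCGC as well as TTGCCGC) and the ETS core (CCGGAAG), each sought on both strands.
NCAPG (chr4:17812494-17812594, + strand): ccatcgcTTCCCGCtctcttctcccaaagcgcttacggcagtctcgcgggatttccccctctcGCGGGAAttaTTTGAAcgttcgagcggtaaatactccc
NCAPD3 (chr11:134093837-134093937, − strand): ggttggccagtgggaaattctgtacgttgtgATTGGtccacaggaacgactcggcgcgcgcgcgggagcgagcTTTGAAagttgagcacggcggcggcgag
NCAPG2 (chr7:158497445-158497545, − strand): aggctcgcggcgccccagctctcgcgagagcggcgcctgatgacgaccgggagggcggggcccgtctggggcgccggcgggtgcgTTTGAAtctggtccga
NCAPH (chr2:97001458-97001558, + strand): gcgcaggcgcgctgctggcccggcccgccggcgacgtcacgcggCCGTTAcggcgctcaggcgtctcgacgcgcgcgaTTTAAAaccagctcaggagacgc
NCAPD2 (chr12:6602470-6602570, + strand): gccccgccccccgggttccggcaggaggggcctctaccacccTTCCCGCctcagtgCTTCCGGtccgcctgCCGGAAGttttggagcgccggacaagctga

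To find whether MYBL2 was present at the condensin promoters, peaks lying within 1000 bp of any annotated transcription start site (TSS) were collected for each gene. All 8 genes had such a peak, where 59.4% of protein-coding genes did. In all 8 the best peak, the one with the largest fold enrichment, was 5-fold or more over background, where 49.6% of protein-coding genes had one of that strength. Fold enrichment is the authors' linear ratio. It divides the fragments piled up at a summit by the background from the scaled input, with 1 added to both. That background was never below 3.45 fragments in the list, and at SMC2, NCAPH and NCAPH2 it stood at this lowest value. The median fold enrichment over the 8 best peaks was 16.3 (range 9.21 to 40.3). Over the 11938 protein-coding genes with a promoter peak it was 8.67, and 89.0% of these genes had a weaker best peak than the condensin median. All 8 genes were rich in CpG around the outermost TSS (observed/expected of 0.648 at NCAPD2 to 0.912 at SMC4). At NCAPD3 the outermost TSS was 1521 bp from the summit, so its value (0.719) was not taken at the peak. Among the 11994 coding genes with an observed/expected of at least 0.6, 79.1% had a promoter peak, with a median of 9.07. The members and the background were not compared by a test.

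NCAPG, which encodes the HEAT-repeat subunit G of condensin I, had the strongest peak of the 8. That peak, on chromosome 4 (17811842 to 17813969), reached a fold enrichment of 40.3 with a pileup of 202 fragments. The 95% Poisson interval of the pileup was 175.1 to 231.9 fragments, which with the background held fixed is a fold enrichment of 34.9 to 46.2. It ranked 48 among all 66954 peaks and was stronger than the best peak of 99.5% of bound coding genes. The summit lay 48 bp upstream of the TSS (17812602, the start of the gene).

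The other condensin I genes were weaker. NCAPH, the kleisin that closes the condensin I ring, had a peak on chromosome 2 (97001200 to 97002282) with a fold enrichment of 17.1 (interval 13.5 to 21.3) from 75 fragments, its summit 14 bp past the TSS in the 5′ UTR. NCAPD2, the HEAT-repeat subunit D of condensin I, had a peak on chromosome 12 (6602054 to 6604284) with a fold enrichment of 15.1 (interval 12.1 to 18.6) from 88 fragments. That summit was 8 bp past the nearest TSS and 738 bp upstream of the canonical one. Neither interval overlapped that of NCAPG.

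Among the condensin II genes the levels were more spread. NCAPG2, the condensin II counterpart of NCAPG, was the second strongest of the 8. On chromosome 7 (158497136 to 158498066) its peak reached a fold enrichment of 21.5 (interval 17.5 to 26.1) with 97 fragments, and had its summit 4 bp past the nearest TSS, in the 5′ UTR. NCAPD3, the HEAT-repeat subunit D of condensin II, had a peak on chromosome 11 (134093674 to 134094722) with a fold enrichment of 12.1 (interval 9.48 to 15.2) from 72 fragments and a summit 1 bp upstream of the nearest TSS. NCAPH2, the kleisin of condensin II, had the weakest and narrowest peak of the 8, 346 bp on chromosome 22 (50946550 to 50946895). Its fold enrichment was 9.21 (interval 6.64 to 12.5) from 40 fragments, near the middle of bound coding genes, 54.2% of which were weaker.

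Both shared subunits fell between these. The best SMC4 peak, on chromosome 3 (160116754 to 160118142), was 17.8-fold enriched (interval 14.5 to 21.7) by 96 fragments, its summit 6 bp past the nearest TSS. SMC2 had 1 peak, on chromosome 9 (106855551 to 106857319), with a fold enrichment of 15.5 (interval 12.1 to 19.6) from 68 fragments. SMC2 stood apart in position when the nearest annotated TSS was taken. Its summit lay 399 bp upstream of its nearest TSS, while the other 7 summits were within 50 bp of one, as were 40.7% of the summits of bound coding genes. Of those genes, 86.5% had a summit closer to a TSS than SMC2. By the canonical TSS, SMC2 (448 bp) was closer than NCAPD2 (738 bp). The SMC2 peak was 1769 bp wide and its edge still reached past the TSS.

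**Figure D1:**
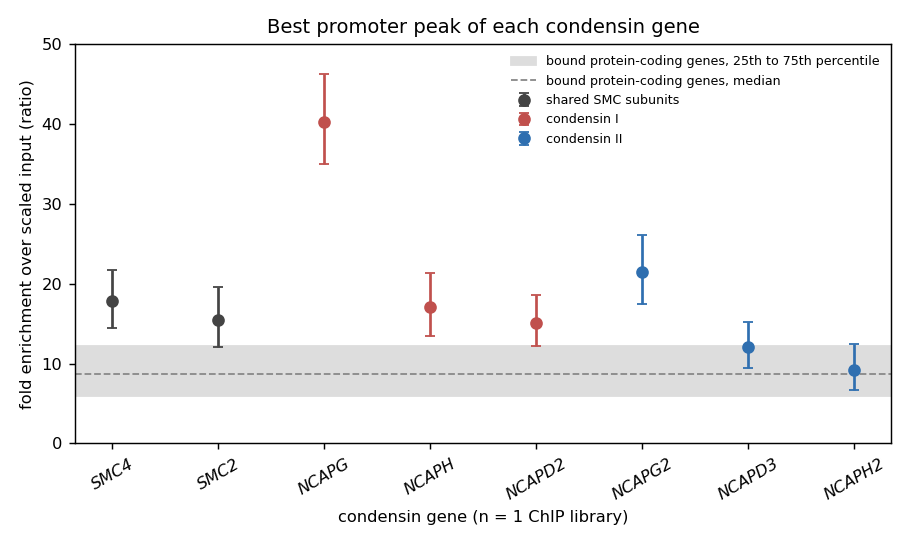
Fold enrichment of the best promoter peak of each condensin gene (points, n = 1 ChIP library) with 95% Poisson intervals of counting error (bars), set against the 25th to 75th percentile (5.94 to 12.1) and the median (8.67) of bound protein-coding genes. NCAPG stands alone at 40.3, NCAPD3 and NCAPH2 lie within the grey band, and the other 5 lie between 15.1 and 21.5.

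Subunit classes were then set side by side. The median fold enrichment was 16.7 for the 2 shared subunits, 17.1 for the 3 condensin I genes (15.1 to 40.3) and 12.1 for the 3 condensin II genes (9.21 to 21.5). Condensin I thus had the higher median by 5.00, but NCAPG2 of condensin II exceeded 2 of the 3 condensin I genes. The classes overlapped, and with 2 or 3 genes of 1 library each no test was made. In order of pileup, 5 of the 7 steps between neighbours had a ratio whose exact 95% interval included 1. The exceptions were the steps at either end. NCAPG exceeded NCAPG2 by a ratio of 2.08 (interval 1.63 to 2.68) and SMC2 exceeded NCAPH2 by 1.70 (interval 1.13 to 2.58). Between them, the 6 middle genes ran from 97 down to 68 fragments. The ratio of the 2 ends of that run was 1.43 (interval 1.04 to 1.97), but these ends were picked as its highest and lowest values. All these intervals cover counting error only and do not allow for the choice of pairs by their pileup, so no difference within the run is claimed.

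The sequence around the summits differed between the genes. The CHR element was found within 50 bp of the summit at NCAPG, NCAPD3 and NCAPG2, or 3 of 8 genes, whereas 3.93% of the best summits of the 11938 bound coding genes had it in a window of the same size. In all 3 it read TTTGAA on the strand of the gene, starting 13 bp past the summit at NCAPG and NCAPD3 and 25 bp past it at NCAPG2. NCAPH had TTTAAA on the same strand, 18 bp past its summit. Counting that sequence too, which was chosen after the sequences were seen, gave 4 of 8 genes and 5.65% of the background. These 4 are the first 4 lines of sequence above. Both G-type subunits and members of both complexes were among them, and neither shared subunit was. SMC4 had a CHR element on the opposite strand 100 bp upstream of its summit.

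Other matches were more scattered. The E2F core, the shared part of the sites bound by E2F factors, was within 50 bp of the summit at NCAPD2, NCAPG, NCAPG2 and NCAPH2 (4 of 8, against 8.93% of the background). The longer E2F site (TTTCCCGC or TTTGGCGC), both forms of which contain a core, was at NCAPG2 only, where it starts 43 bp past the summit and so beyond the printed line (1.35% of the background). At NCAPG a GCGGGAA, the E2F core read on the opposite strand, started 3 bp past the summit and ended 3 letters before the CHR element. The CCAAT box, which NF-Y binds, was at NCAPD3 alone, starting 29 bp upstream of the summit (10.0% of the background). The MYB site was at SMC4 and NCAPH (2 of 8, against 17.6%). NCAPG, with the strongest peak, had none within 150 bp of its summit. Most of the background also lacked one nearby, as 31.4% had a MYB site within 100 bp of the summit.

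NCAPD2 had the only ETS cores, 1 on each strand and both within 20 bp of the summit (1 of 8 genes, against 8.54%). The GC box (GGGCGG), which was not put in capitals and can overlap an E2F core, was at NCAPG2 and NCAPH2 (2 of 8, against 29.3%). The SMC2 summit had none of these matches within 50 bp. A match of letters is a description of the sequence, and no binding of the named factors at these letters was measured.

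**Figure D2:**
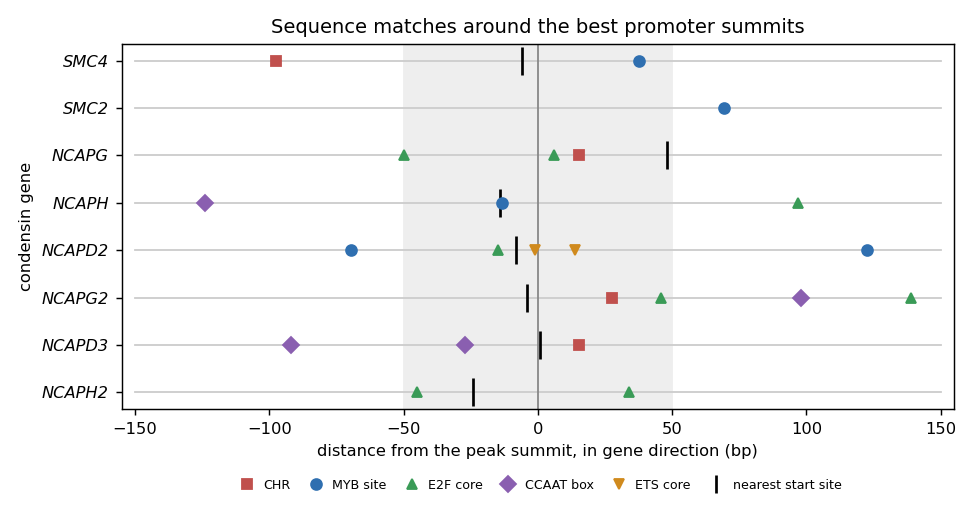
Matches to 5 motifs within 150 bp of the best promoter summit of each condensin gene, by distance from the summit in the direction of the gene (bp). The grey band is the window of 50 bp either side and the black ticks are the nearest TSS. The CHR element (red squares) lies 13 to 25 bp past the summit at NCAPG, NCAPD3 and NCAPG2. The nearest TSS of SMC2 is outside the plot.

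Several of these peaks also lay near the start of a neighbour on the other strand. For 5 of 8 genes the best peak was also within 1000 bp of a TSS of a protein-coding gene that runs the opposite way. This held for 24.7% of bound coding genes. The neighbours were IFT80 at SMC4, MRPL51 at NCAPD2, DCAF16 at NCAPG, VPS26B at NCAPD3 and LMF2 at NCAPH2. The same peak was the best promoter peak of each of these 5 neighbours. At SMC2 the neighbour was the divergent lncRNA SMC2-DT, whose nearest TSS was 788 bp from the summit, so the SMC2 summit lay between the starts of both. By the nearest annotated TSS of each gene, the summit was closer to the condensin gene than to the coding neighbour in all 5 pairs. At NCAPD2 it was 8 bp from the nearest NCAPD2 TSS and 69 bp from that of MRPL51. The canonical NCAPD2 TSS was 738 bp away, so the order at NCAPD2 depends on which TSS is taken. At SMC4 the summit was 6 bp from SMC4 and 131 bp from IFT80. At NCAPG the distances were 48 bp and 173 bp. They were 1 bp and 688 bp at NCAPD3 and 24 bp and 582 bp at NCAPH2. Only NCAPH and NCAPG2 shared their peak with no coding or lncRNA promoter. Which gene of a pair a peak acts on cannot be told from these data.

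Along their whole length, the condensin genes differed widely in how many peaks they held. Peaks within 1000 bp of any annotated TSS, the promoter rule used above, were not set apart in this count. By that rule SMC4, with 22 annotated TSSs, had 21 promoter peaks. NCAPG had 4, NCAPH 3, NCAPG2 2 and each other gene 1. Summits were counted from 1000 bp upstream of each gene to its end. SMC4 held 34 peaks over 35.7 kb and NCAPG 21 peaks over 33.9 kb. NCAPH and NCAPG2 had 10 each over 41.3 and 73.6 kb, NCAPD2 had 4 over 38.6 kb, NCAPD3 had 3 over 75.4 kb, NCAPH2 had 2 over 16.6 kb, and SMC2 had only its promoter peak over 47.2 kb. The 2 shared subunits were thus at opposite ends of this order. In peaks per kb, SMC4 (0.927) exceeded 99.8% and NCAPG (0.602) exceeded 98.2% of the 14854 protein-coding genes of 10 kb or longer, whose median was 0.0277 and 90th percentile 0.202. NCAPH (0.236) exceeded 91.6% of them, and SMC2 (0.0208) lay below their median.

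The peaks inside SMC4 and NCAPG were weak. They were counted from the canonical TSS, so many of those in SMC4 also lay within 1000 bp of another annotated TSS. More than 1000 bp past the canonical TSS, SMC4 had 33 peaks with a median fold enrichment of 3.71 (range 2.65 to 6.16) from a median of 19 fragments, and NCAPG had 20 peaks with a median of 3.61 (range 2.65 to 4.52) from 18 fragments. Over all 66954 peaks the median fold enrichment was 3.79 and the median pileup 20 fragments. The local background below these peaks had a median of 4.66 fragments in SMC4 and 4.11 in NCAPG, above the lowest background in the list, 3.45, and its part in the number of peaks was not tested. DNA copy number and transcription of these genes in A673 were not analysed here. Peaks covered 46.0% of the SMC4 interval and 25.3% of the NCAPG interval, but 2.20 to 8.78% in the other 6 genes. Neighbouring summits were a median of 898 bp apart in SMC4 and 1158 bp in NCAPG. In exons of the canonical transcript lay 4 of 33 summits in SMC4, where exons make up 14.5% of the transcript's span. In NCAPG it was 1 of 20, where exons make up 13.5%, and neither count was tested against its share.

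The density fell off past these genes. SMC4 had 5 summits in the first 10 kb past its end and 1 in the next 90 kb, and NCAPG had 4 and 0. Upstream, from 1 kb to 100 kb before the gene, there was 1 summit for SMC4 and 11 for NCAPG. The strongest internal SMC4 peak, at 6.16, lay 4066 bp past the canonical TSS. The hairpins of MIR15B (160122376 to 160122473) and MIR16-2 (160122533 to 160122613), microRNA genes inside SMC4, were in no peak and lay 154 and 311 bp from the nearest, which had a fold enrichment of 3.90.

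**Figure D3:**
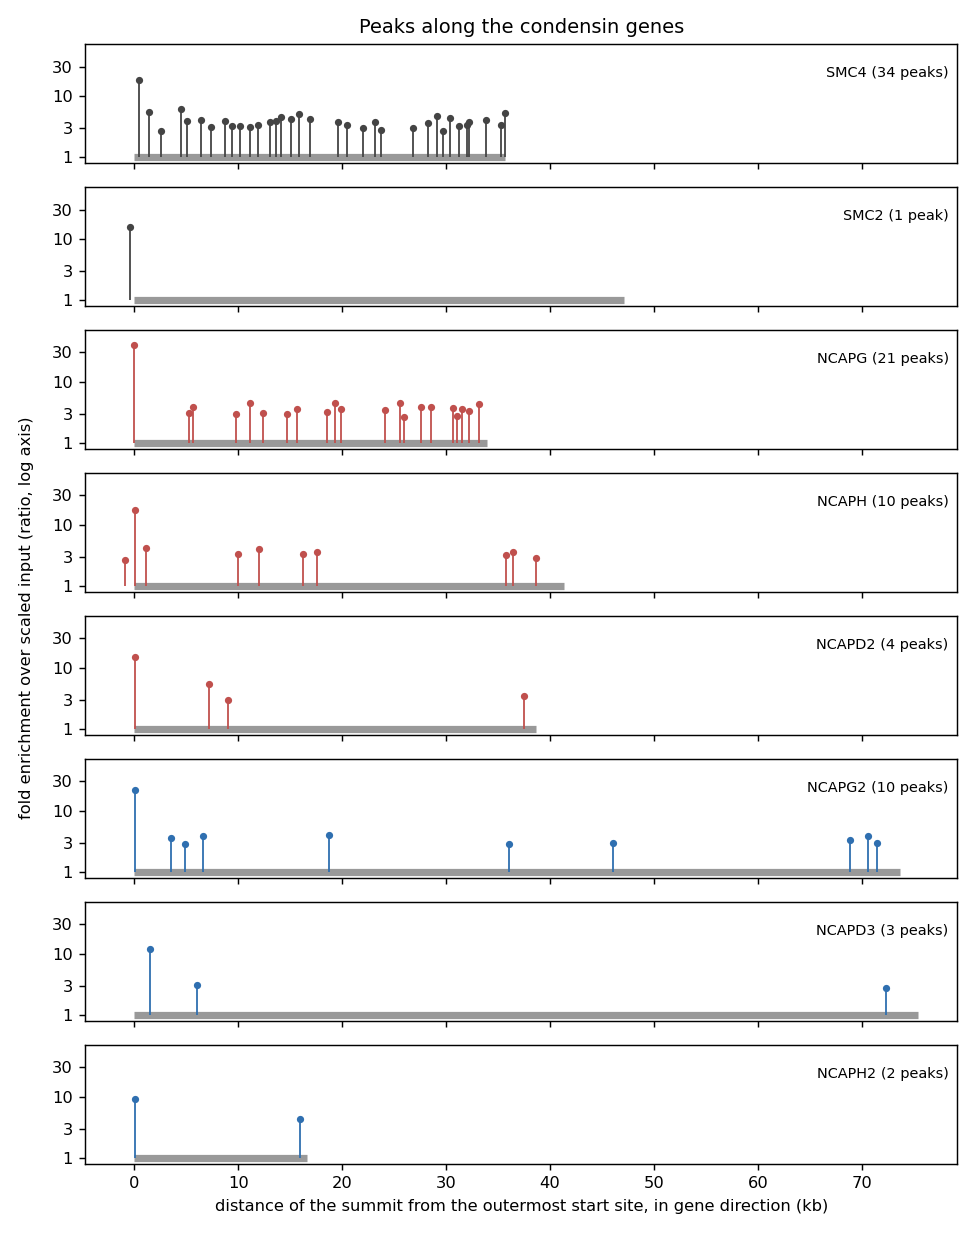
Every peak along the 8 condensin genes by distance of its summit from the outermost TSS (kb) and fold enrichment (log axis). Grey bars are the genes. SMC4 (34 peaks) and NCAPG (21 peaks) have weak peaks along much of their length, with gaps, while SMC2 has 1 peak. The main NCAPD3 peak is drawn inside the gene because an annotated TSS lies further upstream.

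**Figure D4:**
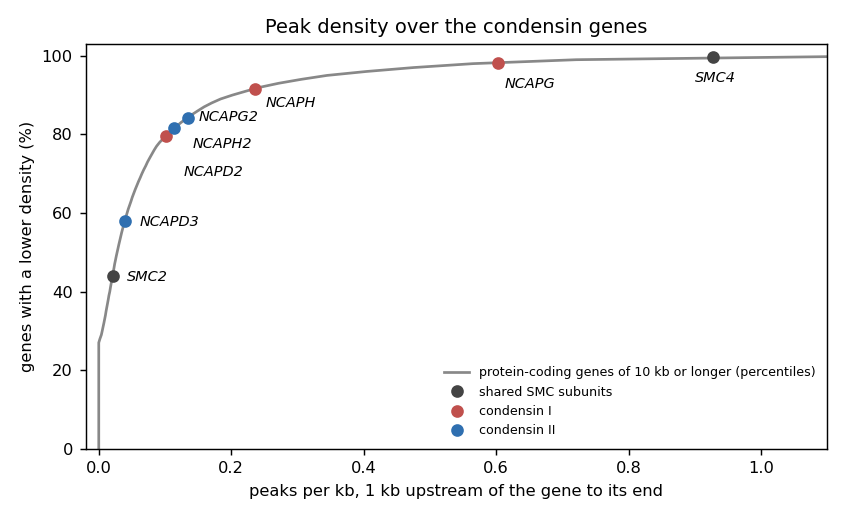
Peaks per kb over each condensin gene against the share of protein-coding genes of 10 kb or longer with a lower density (%), with the percentiles of those genes as a line. SMC4 (0.927 per kb) and NCAPG (0.602 per kb) lie at the upper end, and SMC2 (0.0208 per kb) is below the median.

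Condensin was finally set beside gene groups it works with. All 12 genes of a list of condensin regulators and chromosome partners had a promoter peak, each with a fold enrichment of at least 5. Of all protein-coding genes, 59.4% had a promoter peak and 49.6% had one of that strength. The median of the list was 10.5 (range 5.18 to 29.6), against 8.67 for bound coding genes. The strongest were PLK1 (29.6), a mitotic kinase that phosphorylates condensin II, CDK1 (21.6), the main mitotic kinase, and TOP2A (20.9), the topoisomerase of the chromosome axis. The weakest were MKI67 (8.54), which coats mitotic chromosomes, the chromokinesin gene KIF4A (7.04), whose peak is also at the promoter of PDZD11, and TOP2B (5.18), the topoisomerase that is present in non-dividing cells too. NCAPG had a larger pileup than PLK1 (202 against 136 fragments), with intervals that did not overlap (175.1 to 231.9 and 114.1 to 160.9).

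The other SMC complexes showed a similar spread. All 11 somatic cohesin and SMC5/6 genes had a promoter peak of at least 5-fold, as did 49.6% of protein-coding genes. Their median was 12.9 (range 7.17 to 28.7). SMC1A, a cohesin arm whose peak is also at the promoter of RIBC1, led with 28.7, and SMC3 and SMC5 followed with 14.8 and 14.7. The weakest were RAD21 (8.54), the cohesin kleisin, NSMCE4A (8.54), a subunit of SMC5/6, and STAG2 (7.17), which binds the cohesin kleisin. Cohesin genes that serve mainly in meiosis also had promoter peaks, 4 of 4, where 59.4% of protein-coding genes had one. Those of REC8 (3.82) and RAD21L1 (3.15) were below 5-fold, that of STAG3 was 9.21, and that of SMC1B was 18.9. The STAG3 and SMC1B peaks were at once at the promoters of GPC2 and RIBC2. The median of the condensin genes, 16.3, was above that of each list, but the lists overlapped and the difference was not tested. Among the partners PLK1, CDK1, TOP2A and AURKB (19.1) lay above 16.3, as did SMC1A and SMC1B, while all other genes of these lists lay below it.

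**Figure D5:**
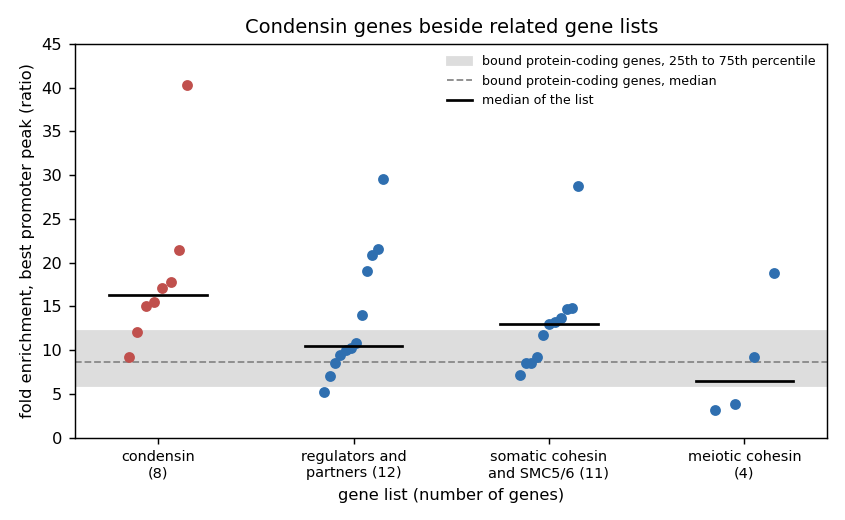
Fold enrichment of the best promoter peak of each gene (points) in 4 lists, with the median of each list (black bars) and the 25th to 75th percentile and median of bound protein-coding genes (grey band and dashed line). The medians are 16.3 for condensin, 10.5 for its regulators and partners, 12.9 for somatic cohesin and SMC5/6, and 6.51 for meiotic cohesin.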

How the data were processed

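A673 cells gave 1 MYBL2 ChIP and 1 input library of single-end reads. Bowtie2 2.1.10 and MACS2 2.0.10, as versioned in the submitters' processing notes, were used by the authors for alignment to hg19 and for narrow peaks against the input, after a filter on mapping quality. What a later cleaning of the list removed is not given in the sources used here. The deposited list gives per peak the fold enrichment (a ratio), −log10 p, −log10 q and a score made from the q. No read counts were used, and 0 peaks passed a GRCh37 chromosome end.

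The whole-number pileup behind each peak was solved from the deposited ratio and −log10 p for 66954 of 66954 peaks (largest misfit 3.49e-05), after the step was tested on simulated data. Poisson and Clopper-Pearson intervals are exact, at 95%, and cover counting error only. TSSs came from GENCODE lifted to GRCh37, with 1 gene per symbol. CpG was taken 500 bp either side of the outermost TSS. Python 3.11.15, scipy 1.17.1 and pandas 2.3.3 were used.

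The members and lists were chosen with earlier results of these data known. All members were named, with each gene sharing their best peak and the 3 strongest and 3 weakest of each longer list. AURKB was named besides, as it lay above the condensin median. Alternatives were peaks with −log10 q or fold enrichment of at least 5, windows of 500 bp or 5000 bp upstream, the summit in the window, canonical TSSs, ranking by q, pileups as values, motif windows of 100 bp or at the TSS, and other background genes.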

Additional observations from a re-analysis of the deposited data

How the results depend on the processing

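No paired analysis was possible because the ChIP and the input each consist of 1 library. All 8 genes kept a promoter peak in every alternative, but none of the alternatives could remove one. The best summits lay at most 399 bp from a TSS (SMC2) and at most 738 bp from the canonical one (NCAPD2). They were thus inside the 500 bp windows around any TSS and the 1000 bp windows around canonical TSSs. The wider window only adds peaks, and the weakest best peak (9.21-fold, −log10 q 25.7) exceeds both peak filters. On the pileup scale the median was 81.5 fragments, condensin I exceeded condensin II by 16 and the shared subunits exceeded the other 6 by 0.5. In windows of 100 bp the MYB site was at 4 of 8 genes (31.4% of the background), the GC box at 5 (51.6%) and the CCAAT box at 2 (20.2%), as a wider window holds more matches, and at the nearest TSS the E2F site was at 0 (1.32%). The 85 peaks along the genes became 38 with −log10 q of at least 5, 13 with fold enrichment of at least 5, and 30 without SMC4 and NCAPG, the last chosen after the data were seen. The −log10 q filter left 18 peaks at SMC4 and 8 at NCAPG, and the fold enrichment filter 5 and 1. A promoter peak was found for 79.1% of CpG-rich coding genes and 41.9% of coding and lncRNA genes together. One library limits all values to counting error.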
